A study of Mus musculus with 48 samples.

Results

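C/EBPα and HNF4α binding was compared in mouse liver at postnatal day 14 (P14), from the peak lists that the authors deposited for chromatin immunoprecipitation with sequencing (ChIP-seq). There were 2 biological replicates of C/EBPα and 2 of HNF4α, all from livers of wild-type male F1 mice (C57Bl6/CBA). A region of a factor was made of the peaks of both of its lists, merged where they overlapped by at least 1 bp, and kept if it held a peak of each list. This gave 34737 C/EBPα regions and 23800 HNF4α regions. Where regions of the factors overlapped they were joined, which left 44241 regions: 13690 of both factors, 20539 of C/EBPα alone and 10012 of HNF4α alone. Over 5 stages and both factors, the series holds 20 peak lists, of which 19 are distinct, 135374 distinct regions and 48 samples in all.

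RNA was measured in 8 other livers, of the same F1 strain by the labels. They were 3 C/EBPα knockout livers (C/EBPa lox/lox / Alfp-Cre), 2 HNF4α knockout livers (HNF4a lox/lox / Alfp-Cre) and 3 wild-type (WT) livers. In the knockouts the gene, flanked by loxP sites, is removed by a Cre recombinase driven by Alfp regulatory sequences, active in the liver lineage, so other cells of the organ keep it. The labels put the RNA livers at 60 days after birth and the text of the series puts them at embryonic day 18.5 (E18.5). Neither is P14, so binding and RNA levels come from livers of different age as well as different mice. The protocol names a chow and a high-fat diet without saying which samples received which.

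C/EBPα is a basic leucine zipper factor and HNF4α a nuclear receptor that binds DNA as a homodimer. Each recognises its own sequence, and both are known for driving hepatocyte genes, among them those of ammonia disposal, bile acid and drug metabolism, clotting factors and other plasma proteins. Many liver enhancers and promoters carry sites for several such factors close together. Each gene was placed in a class by the regions within 5 kb of its transcription start site (TSS), and examples of the 3 classes are shown first.

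The sequences printed here are the 250 bases upstream of the start of 9 genes, 3 from each class, chosen for a large fall of RNA in the knockout of a factor bound at the start. They are examples of start regions with and without the motifs, and do not show a difference between the classes. They were taken from RefSeq on build GRCm38.p6, while peak positions are on mm9, and 5′ to 3′ on the gene's strand. Capitals mark matches, on either strand, to the C/EBP motif TTGCNNAA or the HNF4 motif CAAAGTNCA. The first 3 genes have a region of both factors at the start. They are Cyp3a25, a cytochrome P450 (chr5:146009619-146009868, minus strand), Inhbe, an inhibin subunit (chr10:127351849-127352098, minus strand), and Aldh8a1, an aldehyde dehydrogenase (chr10:21377050-21377299, plus strand).
Cyp3a25: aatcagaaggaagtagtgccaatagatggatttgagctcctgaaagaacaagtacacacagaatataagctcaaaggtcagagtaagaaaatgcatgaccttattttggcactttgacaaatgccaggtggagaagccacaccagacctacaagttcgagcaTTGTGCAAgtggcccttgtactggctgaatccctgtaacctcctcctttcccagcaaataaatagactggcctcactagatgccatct
Inhbe: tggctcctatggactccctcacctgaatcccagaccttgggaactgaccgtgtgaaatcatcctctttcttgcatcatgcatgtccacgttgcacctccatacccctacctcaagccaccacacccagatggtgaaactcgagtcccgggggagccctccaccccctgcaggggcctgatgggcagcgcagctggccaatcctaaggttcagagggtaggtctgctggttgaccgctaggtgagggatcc
Aldh8a1: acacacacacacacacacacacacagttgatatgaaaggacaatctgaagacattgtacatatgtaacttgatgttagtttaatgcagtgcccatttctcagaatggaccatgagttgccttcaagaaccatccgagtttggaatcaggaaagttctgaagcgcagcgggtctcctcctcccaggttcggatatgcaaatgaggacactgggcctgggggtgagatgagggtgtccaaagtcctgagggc
A C/EBP match lay 88 to 81 bases before the start of Cyp3a25. Neither motif was found in these letters of Inhbe or Aldh8a1.

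The next 3 genes had C/EBPα alone at the start. They are Saa4, a serum amyloid protein (chr7:46732604-46732853, minus strand), 3930402G23Rik, a gene known by its clone name (chr8:10928458-10928707, minus strand), and Acsm3, an acyl-CoA synthetase (chr7:119760673-119760922, plus strand).
Saa4: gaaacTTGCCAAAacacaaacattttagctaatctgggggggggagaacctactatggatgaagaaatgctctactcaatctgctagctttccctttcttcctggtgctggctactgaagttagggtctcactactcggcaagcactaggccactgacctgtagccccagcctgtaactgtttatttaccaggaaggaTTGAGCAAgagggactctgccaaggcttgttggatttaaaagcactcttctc
3930402G23Rik: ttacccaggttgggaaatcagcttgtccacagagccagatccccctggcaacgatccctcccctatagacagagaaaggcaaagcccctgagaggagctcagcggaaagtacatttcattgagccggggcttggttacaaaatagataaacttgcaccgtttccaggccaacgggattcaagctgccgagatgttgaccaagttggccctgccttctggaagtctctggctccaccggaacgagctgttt
Acsm3: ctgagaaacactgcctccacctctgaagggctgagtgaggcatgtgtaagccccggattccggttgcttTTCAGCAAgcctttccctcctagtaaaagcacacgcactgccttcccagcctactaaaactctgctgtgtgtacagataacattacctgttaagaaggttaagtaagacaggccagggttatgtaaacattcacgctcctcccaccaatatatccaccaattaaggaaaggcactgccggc
Saa4 held C/EBP matches 245 to 238 and 52 to 45 bases before its start, and Acsm3 held 1 at 181 to 174 bases. The window of 3930402G23Rik held neither motif.

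The last 3 had HNF4α alone at the start. They are Mbl2, a lectin of the complement system (chr19:30232678-30232927, plus strand), Apol7a, an apolipoprotein L family gene (chr15:77399111-77399360, minus strand), and Otc, the urea cycle enzyme ornithine transcarbamylase (chrX:10252055-10252304, plus strand).
Mbl2: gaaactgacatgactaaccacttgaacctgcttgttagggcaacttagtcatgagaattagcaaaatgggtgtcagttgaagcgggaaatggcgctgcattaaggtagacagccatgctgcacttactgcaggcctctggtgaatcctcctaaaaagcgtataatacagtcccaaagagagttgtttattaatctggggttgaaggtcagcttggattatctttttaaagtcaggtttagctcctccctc
Apol7a: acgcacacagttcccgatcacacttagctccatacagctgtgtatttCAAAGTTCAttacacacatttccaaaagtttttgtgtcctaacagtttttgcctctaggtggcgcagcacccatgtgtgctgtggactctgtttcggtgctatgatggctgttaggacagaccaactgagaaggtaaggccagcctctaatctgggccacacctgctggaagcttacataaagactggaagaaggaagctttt
Otc: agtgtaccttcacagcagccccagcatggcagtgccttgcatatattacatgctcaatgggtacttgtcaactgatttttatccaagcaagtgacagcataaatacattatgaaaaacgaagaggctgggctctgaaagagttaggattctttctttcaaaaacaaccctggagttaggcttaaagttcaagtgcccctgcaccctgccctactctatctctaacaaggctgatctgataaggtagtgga
Apol7a held an HNF4 match 203 to 195 bases before its start, and the windows of Mbl2 and Otc held neither motif.

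The same search was run over all protein-coding genes outside chromosome 18 whose window from 250 bases before to 50 after the start was covered by a region. Of the genes with a region of both factors, 1324 of 1645 (80.5%) matched a RefSeq promoter, of those with C/EBPα alone 1606 of 1963 (81.8%), and of those with HNF4α alone 1122 of 1400 (80.1%). The C/EBP motif stood in 13.6% of the promoters with both factors, in 16.4% with C/EBPα alone and in 4.81% with HNF4α alone, beside 9.98% of all protein-coding genes with a promoter and 10.7% of all 27025 genes in the table. The HNF4 motif stood in 3.32% with both factors, 0.934% with C/EBPα alone and 1.96% with HNF4α alone, beside 1.39% of protein-coding genes and 1.41% of all. Of all protein-coding genes 16648 of 21852 (76.2%) matched a promoter, too few for a full check, so these reference shares are void as a test and stand as a description. Promoters with both motifs were few, 11 of 1324 (0.831%) where both factors were bound. These counts have no replicate, and most bound promoters held no exact match to either motif.

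The lists differed in size and in the width of their peaks. The C/EBPα lists held 40636 and 45245 peaks with median widths of 638 and 642 bp, and the HNF4α lists held 28222 and 29506 peaks with median widths of 914 and 809 bp. HNF4α peaks were thus fewer and wider in both replicates, and the mean of the medians was 640 bp for C/EBPα and 861.5 bp for HNF4α. The difference of -221.5 bp had p = 0.3333 in an exact 2-sided permutation test, the smallest p that 2 lists against 2 allow. The lists covered similar lengths of the genome, 27.7 and 31.0 Mb for C/EBPα and 27.8 and 25.6 Mb for HNF4α.

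Replicates of a factor shared more peaks with each other than with the other factor. Of the peaks of C/EBPα replicate 1, 87.0% overlapped a peak of C/EBPα replicate 2, and 43.1% and 43.8% overlapped peaks of HNF4α replicates 1 and 2. Of C/EBPα replicate 2, 77.8% overlapped C/EBPα replicate 1, and 39.7% and 40.1% the HNF4α lists. HNF4α replicate 1 shared 85.0% of its peaks with HNF4α replicate 2, and 59.3% and 61.0% with the C/EBPα lists. For HNF4α replicate 2 these shares were 82.5% with HNF4α replicate 1, and 58.4% and 59.7% with the C/EBPα lists. In bases covered, the Jaccard index (shared over joint length) was 0.611 within C/EBPα, 0.637 within HNF4α and 0.270 to 0.288 between the factors. Every pair of one factor thus lay above every pair across factors.

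**Figure D1:**
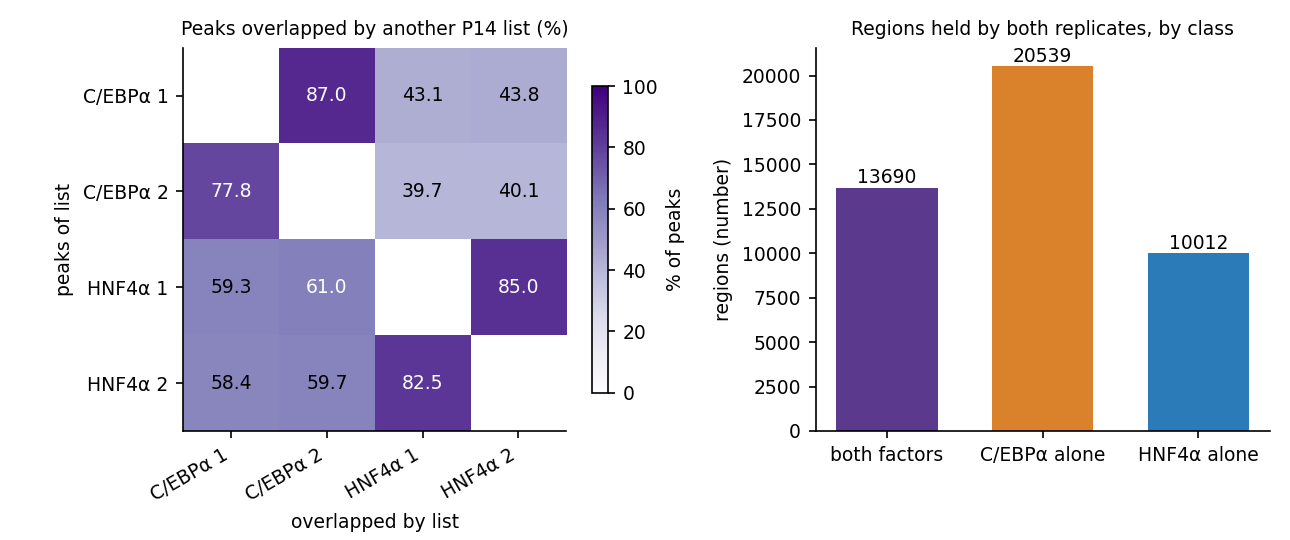
Left, percent of the peaks of each P14 list (rows) that overlap a peak of each of the 4 lists (columns). Right, number of regions of both factors (13690), of C/EBPα alone (20539) and of HNF4α alone (10012).

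Of the C/EBPα regions, 14198 (40.9%) overlapped an HNF4α region, and of the HNF4α regions, 13788 (57.9%) overlapped a C/EBPα region. List by list, 39.1% and 35.7% of C/EBPα peaks and 54.5% and 53.6% of HNF4α peaks lay on a region of the other factor. The numbers that overlap are about equal, so the higher HNF4α share follows from its fewer regions, 23800 beside 34737. These shares describe the classes and carry no test. Joined regions of both factors had a median width of 1094 bp. A C/EBPα region had a median width of 839 bp where HNF4α was bound too and 717 bp where it was alone. An HNF4α region had 1024 bp where C/EBPα was bound too and 931 bp alone.

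Shared regions were chosen by overlap, so the middles of their parts lie near each other by the rule, and the distances are a description without a value to set them against. The middle of a shared C/EBPα region lay a median of 80.5 bp from the nearest middle of a shared HNF4α region. The middle 50% of distances ran from 34.5 to 181.5 bp. Of these distances 57.9% were at most 100 bp, 76.9% at most 200 bp and 7.56% over 500 bp. Most shared regions, 13149 (96.0%), were made of 1 region of each factor, and 541 held 2 or more of a factor. Peak middles place a protein less exactly than summits do, which the lists do not give.

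**Figure D2:**
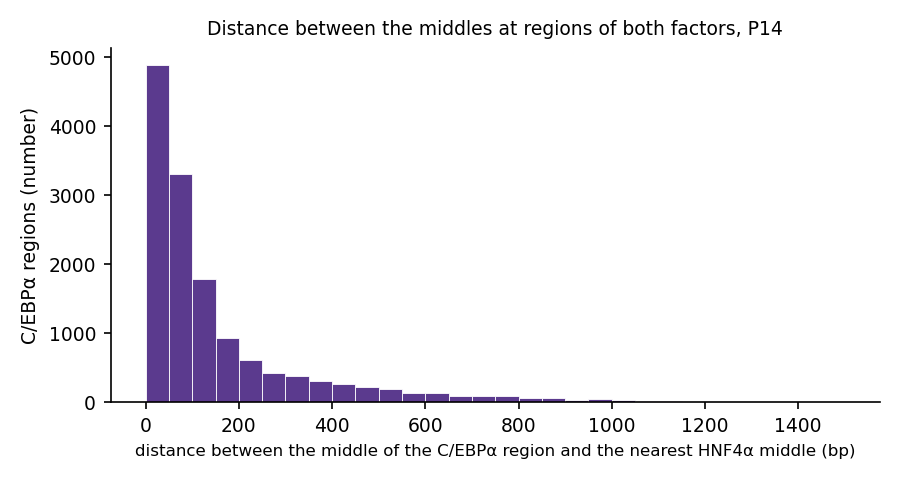
Distance in bp between the middle of a shared C/EBPα region and the nearest middle of a shared HNF4α region, in bins of 50 bp. The y axis gives the number of regions. Counts are highest at short distances, with a median of 80.5 bp, and the axis ends at 1500 bp.

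Regions of HNF4α alone lay nearer to genes than regions of C/EBPα alone. The share of regions within 1 kb of a TSS was 16.5% for both factors, 14.5% for C/EBPα alone and 18.7% for HNF4α alone. Within 5 kb the shares were 30.8%, 28.1% and 33.8%, and the median distance to the nearest TSS was 13.5, 16.0 and 11.7 kb, in the same order of classes. Among peaks that did not overlap the other factor, 14.6% and 13.7% in the C/EBPα lists were within 1 kb of a TSS, against 19.5% and 19.6% in the HNF4α lists. The lists of the factors did not overlap in this share, and the exact permutation p was again 0.3333. In every class most regions were farther than 5 kb from any TSS.

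Binding of one factor alone depends on the call in both lists of the other. Of the C/EBPα-alone regions, 3351 (16.3%) held an HNF4α peak in 1 of its 2 lists, and of the HNF4α-alone regions, 2733 (27.3%) held a C/EBPα peak in 1 list. Taken by list, the HNF4α peaks stood in 7.34% and 9.03% of the C/EBPα-alone regions, and the C/EBPα peaks in 12.3% and 15.3% of the HNF4α-alone regions. A region of HNF4α lay within 1 kb of 8.66% and within 10 kb of 39.2% of C/EBPα-alone regions. A region of C/EBPα lay within 1 kb of 13.3% and within 10 kb of 57.5% of HNF4α-alone regions. The lists give no peak height, so weak binding below the authors' threshold is not seen in any class.

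The P14 classes differed in how often the other stages had peaks there. C/EBPα lists from E15.5 covered 40.6% and 32.5% of the C/EBPα regions shared with HNF4α at P14, 32.4% and 24.8% of the C/EBPα-alone regions, and 1.27% and 0.929% of the HNF4α-alone regions. At E18.5 the shares were 89.8% and 86.2%, 90.3% and 84.0%, and 38.3% and 26.8%. At P60 they were 86.5% and 95.1%, 73.0% and 90.2%, and 25.7% and 47.0%. Regions without C/EBPα at P14 were thus the least covered class in each of these C/EBPα lists.

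HNF4α lists from E15.5 covered 75.1% and 69.1% of the HNF4α regions shared with C/EBPα at P14, 21.9% and 15.8% of the C/EBPα-alone regions, and 72.9% and 65.7% of the HNF4α-alone regions. At E18.5 these were 46.2% and 39.6%, 5.31% and 3.82%, and 37.1% and 31.1%. At P0.5, where the HNF4α lists were identical and count as 1, they were 69.8%, 8.98% and 60.1%. In each of these HNF4α lists the shared regions were covered more often than the HNF4α-alone regions. The shared regions were also wider, with a median of 1024 against 931 bp. In windows of 100 bp on either side of the middle, the E15.5 shares were close, 70.5% and 64.7% against 70.4% and 63.4%. In these windows they were 40.7% and 34.7% against 34.7% and 29.0% at E18.5, and 69.3% against 59.8% at P0.5. List sizes differ between stages, from 13434 to 121624 peaks, and larger lists can cover more regions, so no gain or loss over time is read from these shares.

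**Figure D3:**
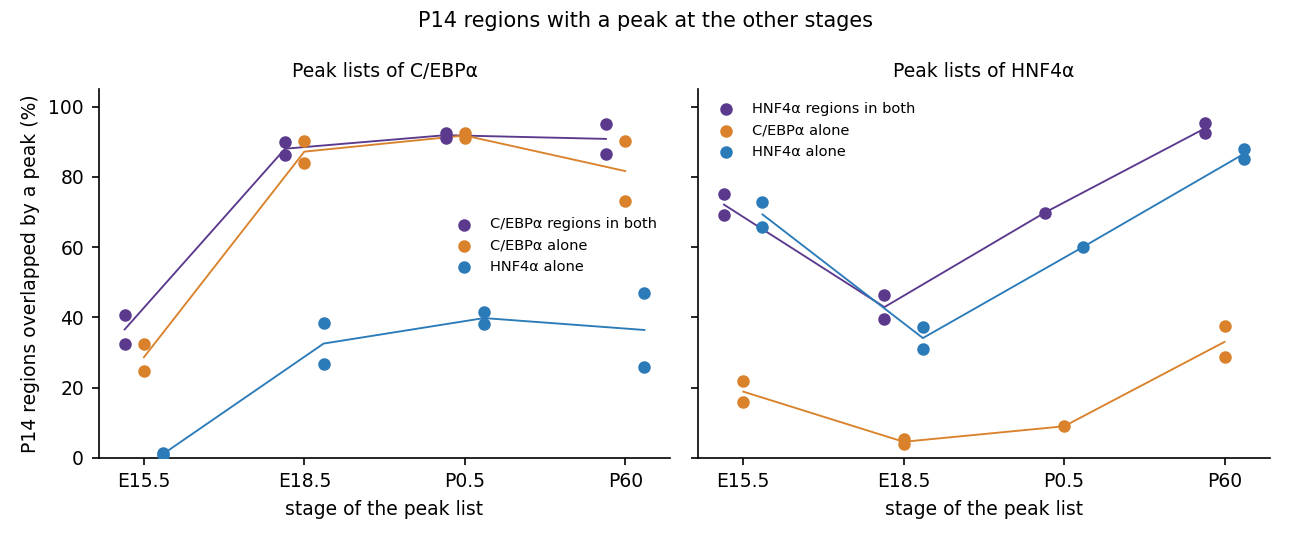
Percent of regions in each P14 class that hold a peak in lists from E15.5, E18.5, P0.5 and P60, with C/EBPα lists on the left and HNF4α lists on the right. Dots are lists and lines join their means; regions bound by the other factor alone are the least covered in both panels.

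The regions of both factors at P14 were also read as shared regions of the other stages. At E15.5, 3495 (25.5%) overlapped a region of both factors of that stage, at E18.5 4004 (29.2%), at P0.5 9114 (66.6%) and at P60 11063 (80.8%). Regions of both factors at all 4 other stages numbered 1536 (11.2%), and those at none numbered 1135 (8.29%). The factors differed in their number of regions, with 10419 of C/EBPα beside 35764 of HNF4α at E15.5. These numbers were 65021 beside 18359 at E18.5 and 94619 beside 21262 at P0.5. The HNF4α lists of E18.5 held 53278 and 41199 peaks, of which 35.6% and 46.0% lay in regions of both replicates. The part of these numbers in the shares was not tested.

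Genes were classed by all regions within 5 kb of the TSS. Of 37583 genes in the authors' table, 4476 (11.9%) had a region of both factors, 4431 (11.8%) had C/EBPα alone and 2144 (5.70%) had HNF4α alone. Another 703 had separate regions of each factor, and 25829 had none. Genes of hepatocyte function were mostly in the class of both factors. It held 25 of 30 genes of the urea cycle and amino acid catabolism, 21 of 23 coagulation genes, 25 of 30 cytochrome P450 and xenobiotic genes, 16 of 20 genes of glucose and glycogen metabolism and 13 of 20 of bile acid synthesis and transport. It also held 14 of 16 plasma carrier proteins, 14 of 20 apolipoprotein and lipoprotein genes, 15 of 20 of fatty acid oxidation and ketogenesis, 13 of 19 complement genes and 11 of 16 acute phase genes.

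Other groups were bound differently. Of 19 cholesterol synthesis genes, 4 had both factors, 8 C/EBPα alone, 1 HNF4α alone and 6 no region. Of 17 genes of fatty acid and triglyceride synthesis, 8 had both, 2 C/EBPα alone and 3 HNF4α alone. Among 25 liver transcription factors, 12 had both, 3 C/EBPα alone, 3 HNF4α alone, 4 separate regions of each, and Cebpd, Foxa1 and Hnf4a none. Of 24 ribosomal protein genes, 3 had both factors, 6 C/EBPα alone and 4 HNF4α alone, and of 21 cell cycle genes 1, 5 and 3. Of the bile duct markers 1 of 9 had both factors and 8 no region, all 11 stellate cell and fibroblast markers had no region, and 16 of 17 neuronal genes had none. Members with no region within 5 kb included Lipc, the hepatic lipase, Apoh, Pfkfb1, Cyp7b1, Hsd3b7, Slco1a1, Cyp2c29 and the complement protease gene C1s. A gene has 1 TSS here, the outermost in the table, so binding at inner promoters can be missed.

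Of the genes of the factors themselves, Cebpa had a region of both factors over its start, chr7:35903649-35904729 on mm9, with peaks of 883 and 652 bp in the C/EBPα lists and of 1081 and 755 bp in the HNF4α lists. Hnf4a had no region within 5 kb of its annotated start; the nearest C/EBPα-alone region was 18895 bp away and the nearest region of both factors 32168 bp. Cebpa had normalized reads of 322, 419 and 998 in C/EBPα knockout, 3886 and 4500 in HNF4α knockout, and 9999, 9594 and 5511 in WT livers. The gene fell in the C/EBPα knockout (log2 -3.98 ± 0.44 SE, n = 3 and 3, limma adjusted p = 0.000413). In the HNF4α knockout its log2 difference was -0.95 ± 0.49 (n = 2 and 3, adjusted p = 0.299). Hnf4a had 2492, 2530 and 4510 in C/EBPα knockout, 1238 and 2444 in HNF4α knockout, and 9098, 4948 and 6718 in WT livers. It fell in the HNF4α knockout (-1.95 ± 0.45, adjusted p = 0.033), a call that was lost without HNF4α knockout replicate 1 (0.44) and WT replicates 1 (0.142) or 3 (0.0879). In every C/EBPα knockout liver Hnf4a was below all WT livers, without passing. HNF4α knockout replicate 2 (2444) was close to C/EBPα knockout replicate 1 (2492). Reads from parts of a gene outside the deleted segment may be counted.

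Libraries stood apart in marker RNAs of other cell types. Summed reads of 13 skeletal muscle markers were 671411 in HNF4α knockout replicate 1, against 267 in replicate 2, 113 to 1494 in C/EBPα knockout and 79 to 204 in WT livers. Sums of 9 bile duct markers were 8694 to 10727 in C/EBPα knockout, 2259 and 2570 in HNF4α knockout and 1260 to 2646 in WT. Stellate cell and fibroblast markers (11 genes) summed to 21526 to 28885, 105461 and 45912, and 16430 to 24562, in the same order of groups. Macrophage markers (12 genes) summed to 5798 to 22886 in C/EBPα knockout, 27427 and 32836 in HNF4α knockout and 15469 to 17377 in WT. Erythroid sums (13 genes) were 795032 to 1381202 in C/EBPα knockout, 3786753 and 2407074 in HNF4α knockout and 669913 to 2150260 in WT. Hepatocyte markers (10 genes, none at 0 in WT) summed to 263444 to 1014882 in C/EBPα knockout, 1290240 and 1740271 in HNF4α knockout and 2885643 to 4309792 in WT. Their part in the RNA results was not tested, and fewer hepatocytes cannot be told apart from less RNA per hepatocyte in whole liver. Normalized totals were 13.4 to 16.4 M reads in C/EBPα knockout, 26.0 and 20.0 M in HNF4α knockout and 20.4 to 22.5 M in WT.

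The next comparison asked how RNA levels in the knockouts stood in each class of bound genes. Of 17771 genes tested, 2.86% were lower and 0.883% higher in C/EBPα knockout than in WT livers, and 3.17% were lower and 1.54% higher in HNF4α knockout than in WT livers. Of 3410 tested genes with both factors, 326 (9.56%) were lower and 19 higher in C/EBPα knockout. Of 3125 with C/EBPα alone, 55 (1.76%) were lower and 14 higher. Of 1538 with HNF4α alone, 33 (2.15%) were lower and 9 higher, and of 9126 without a region, 76 (0.833%) were lower and 111 higher. The share lower among genes with C/EBPα alone was thus below that of all genes, and the share among genes with both factors above it. Genes with both factors themselves made up 326 of the 509 lower over all genes. The share with C/EBPα alone was above that of genes without a region. Median log2 differences were -0.25 with both factors, 0.05 with C/EBPα alone, 0.04 with HNF4α alone, 0.12 without a region and 0.03 over all genes.

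In HNF4α knockout, 354 of the genes with both factors (10.4%) were lower and 20 higher. With C/EBPα alone, 47 (1.50%) were lower and 42 higher, with HNF4α alone 53 (3.45%) were lower and 11 higher, and without a region 77 (0.844%) were lower and 193 higher. Median log2 differences were -0.37, -0.02, -0.13 and 0.20, and 0.02 over all genes. Genes with both factors made up 64.0% of the 509 lower in C/EBPα knockout and 62.9% of the 563 lower in HNF4α knockout. Both comparisons use the same WT livers, so their likeness is no independent result. The 572 tested genes with separate regions of each factor lay between, with 19 (3.32%) lower in C/EBPα knockout and 32 (5.59%) in HNF4α knockout. Of the 157 genes higher in C/EBPα knockout 70.7% had no region, as had 70.7% of the 273 higher in HNF4α knockout, beside 51.4% of all genes tested.

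**Figure D4:**
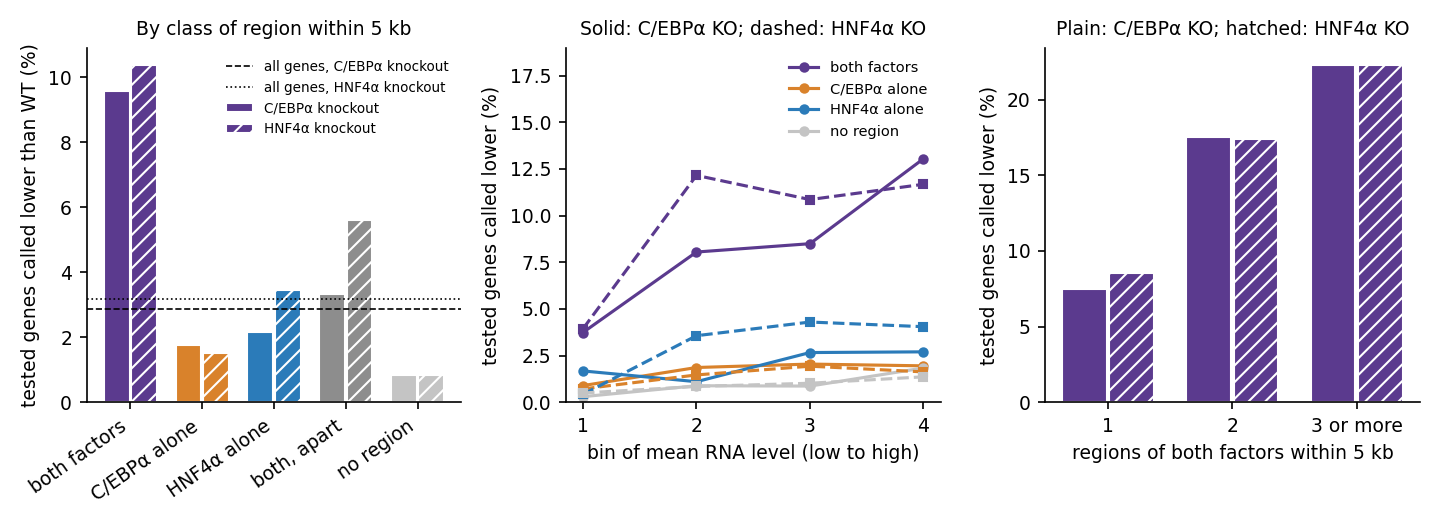
Percent of tested genes that were lower in C/EBPα knockout and in HNF4α knockout than in WT livers, by class of bound regions (left), by bin of mean level, 4 bins of equal size (middle) and by number of regions of both factors within 5 kb (right). Genes with both factors reach 9.56% and 10.4%, beside 2.86% and 3.17% of all genes.

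These counts moved with single libraries. Without HNF4α knockout replicate 1, which held the muscle RNA, 146 genes with both factors (4.30%), 11 with C/EBPα alone (0.356%), 20 with HNF4α alone (1.31%) and 25 without a region (0.281%) were lower in HNF4α knockout. Over the settings of the RNA fit and windows of 1 and 10 kb around the TSS, the share lower in C/EBPα knockout was 5.06% to 12.6% with both factors, 0.804% to 2.49% with C/EBPα alone and 0.932% to 3.29% with HNF4α alone. In HNF4α knockout the ranges were 4.30% to 15.6%, 0.356% to 2.87% and 1.31% to 5.57%. In each of these settings the share with both factors was above that with 1 factor alone, at least 3.56 times the larger of those 2 in C/EBPα knockout and 2.24 times in HNF4α knockout. With library totals in place of the authors' scaling, the median of all genes moved by 0.51 (log2) in C/EBPα knockout against WT, and 40.6% of the calls in place of 76.4% were lower. The class medians were then 0.25 with both factors, 0.56 with C/EBPα alone, 0.55 with HNF4α alone and 0.62 without a region. The median with both factors thus changed sign with the scaling and stayed the lowest of these.

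Genes with both factors were also the more highly expressed, with a median WT level of 573 normalized reads, against 344 with C/EBPα alone, 363 with HNF4α alone and 122.5 without a region. Genes were therefore split by mean level into 4 bins of equal size. From the lowest to the highest bin, 3.73%, 8.05%, 8.49% and 13.05% of genes with both factors were lower in C/EBPα knockout. With C/EBPα alone these were 0.887%, 1.86%, 2.04% and 1.95%, and with HNF4α alone 1.67%, 1.10%, 2.66% and 2.70%. In HNF4α knockout the shares were 3.93%, 12.2%, 10.9% and 11.7% with both factors, 0.709%, 1.46%, 1.93% and 1.62% with C/EBPα alone, and 0.418%, 3.56%, 4.29% and 4.04% with HNF4α alone. Within each bin the share with both factors was above those of the other 2 classes.

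The share lower also differed with the distance and the number of shared regions. Of 2185 genes with a region of both factors within 1 kb of the TSS, 256 (11.7%) were lower in C/EBPα knockout and 273 (12.5%) in HNF4α knockout. Of 1225 genes with the nearest such region 1 to 5 kb away, 70 (5.71%) and 81 (6.61%) were. With 1 shared region within 5 kb (2755 genes), 7.48% were lower in C/EBPα knockout and 8.53% in HNF4α knockout, with 2 (552 genes) 17.6% and 17.4%, and with 3 or more (103 genes) 22.3% and 22.3%. Median WT levels of these groups were also higher with more regions, at 523, 843 and 1299 normalized reads, and their part in the shares was not tested. Genes with C/EBPα alone within 1 kb were lower in C/EBPα knockout in 39 of 2089 cases (1.87%), against 16 of 1036 (1.54%) at 1 to 5 kb. Genes with HNF4α alone within 1 kb were lower in HNF4α knockout in 44 of 1078 cases (4.08%), against 9 of 460 (1.96%) at 1 to 5 kb.

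The share lower was larger among genes that also had a region of both factors within 5 kb at another stage. That region need not be the one of P14. Of 976 genes with a shared region also at E15.5, 16.0% were lower in C/EBPα knockout and 14.2% in HNF4α knockout, against 6.98% and 8.83% of the 2434 others. For E18.5 the shares were 15.1% and 17.2% of 1150 genes, against 6.73% and 6.90% of 2260. For P60 they were 11.2% and 11.7% of 2796 genes, against 2.28% and 4.23% of 614. Median WT levels also differed, at 776 against 513 normalized reads for E15.5, 698 against 523 for E18.5 and 588 against 501 for P60. Their part in the shares was not tested.

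The knockouts were also set against each other, which leaves the WT livers out; differences are C/EBPα knockout minus HNF4α knockout. Of all genes, 1.87% were lower and 1.61% higher in C/EBPα knockout than in HNF4α knockout. Genes with both factors went either way, with 83 (2.43%) lower and 119 (3.49%) higher. With C/EBPα alone 49 (1.57%) were lower and 27 (0.864%) higher in C/EBPα knockout, and with HNF4α alone 18 (1.17%) were lower and 35 (2.28%) higher. The balance for genes with both factors was 51 lower and 227 higher with library totals, and turned to 180 lower and 122 higher without C/EBPα knockout replicate 3. That for HNF4α alone kept its direction in every setting of the fit and at 1 and 10 kb. That for C/EBPα alone turned with library totals, to 21 lower and 75 higher. Without HNF4α knockout replicate 1 the counts were 13 lower and 21 higher with both factors, 7 and 4 with C/EBPα alone, and 2 and 11 with HNF4α alone.

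Among genes with both factors, those with the largest falls in C/EBPα knockout were Cyp3a25, Serpina3k, Hfe2, Cps1, Cyp2a4 and Aldh8a1. Cps1, which makes carbamoyl phosphate from ammonia for the urea cycle, had a region of both factors over its start, chr1:67168836-67169985, with C/EBPα peaks of 1001 and 1046 bp and HNF4α peaks of 997 and 969 bp. Its RNA was at 185, 87 and 625 normalized reads in C/EBPα knockout, 23796 and 22966 in HNF4α knockout and 42271, 35402 and 52397 in WT livers. All C/EBPα knockout livers lay far below the rest. The log2 difference from WT was -7.62 ± 0.59 (n = 3 and 3, limma adjusted p = 4.54e-05) in C/EBPα knockout and -0.87 ± 0.66 (n = 2 and 3, adjusted p = 0.474) in HNF4α knockout, and the knockouts differed from each other by -6.75 ± 0.66 (adjusted p = 0.000912).

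Cyp3a25 had a shared region at chr5:146820798-146821982, and its RNA was at 5, 0 and 11 in C/EBPα knockout, 7 and 19 in HNF4α knockout and 1616, 1188 and 1093 in WT livers. It fell in both (-8.27 ± 0.82, adjusted p = 0.000213, and -6.66 ± 0.92, adjusted p = 0.00208). Aldh8a1 was at 10, 3 and 14 in C/EBPα knockout, 52 and 50 in HNF4α knockout and 1575, 1368 and 1464 in WT, and fell in both (-7.40 ± 0.52 and -4.82 ± 0.58). All knockout livers of either kind lay below all WT livers for both genes, while the knockouts overlapped each other for Cyp3a25. Serpina3k, a secreted protease inhibitor with a shared region at chr12:105576168-105577050, was at 94, 31 and 219, at 104 and 60, and at 53144, 44680 and 4142, with WT replicate 3 below the other WT livers. It fell in both knockouts (-7.94 ± 0.91 and -8.06 ± 1.02, adjusted p = 0.000565 and 0.00127). Reads of Cyp3a25, Serpina3k and other members of the Cyp2a, Cyp2c, Cyp3a, Cyp4a, Serpina and Saa families can be split with near copies, and how such reads were counted is not given in the sources used here.

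Hfe2, which encodes the iron regulator hemojuvelin, had 3 regions of both factors within 5 kb. It was at 5, 2 and 36 in C/EBPα knockout, 2301 and 130 in HNF4α knockout and 1933, 1719 and 1694 in WT livers. It fell in C/EBPα knockout (-7.67 ± 1.02, adjusted p = 0.00152). The HNF4α knockout livers differed widely, and the gene did not pass there (-1.70 ± 1.14, adjusted p = 0.423). Cyp2a4, a steroid hydroxylase, was at 3, 0 and 0 in C/EBPα knockout, 25 and 31 in HNF4α knockout and 315, 192 and 369 in WT, and fell in C/EBPα knockout (-7.48 ± 0.70, adjusted p = 0.000138). It fell in HNF4α knockout too (-3.29 ± 0.78, adjusted p = 0.0369), a call lost in each of 5 fits without 1 library (0.062 to 0.299).

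Those with the largest falls in HNF4α knockout included Serpina3k, Cyp4a10, Inhbe, Cyp2c54 and Cyp4a32. Inhbe was at 25, 11 and 41 in C/EBPα knockout, 1 and 6 in HNF4α knockout and 1822, 739 and 246 in WT livers. It fell in both (-4.88 ± 0.80, adjusted p = 0.00553, and -7.53 ± 0.90, adjusted p = 0.000912). The fatty acid hydroxylase Cyp4a10 was at 66, 34 and 280, at 12 and 2, and at 1156, 1027 and 2279, in the same order of groups, and fell in HNF4α knockout (-7.80 ± 0.86, adjusted p = 0.000631). Cyp2c54 (-7.28 ± 0.82) and Cyp4a32 (-7.00 ± 1.06) fell in HNF4α knockout as well. These falls in HNF4α knockout passed in every fit that left out 1 library. In C/EBPα knockout Cyp2c54 fell (-5.13 ± 0.73, adjusted p = 0.00218), Cyp4a32 did not pass (-3.00 ± 0.95, adjusted p = 0.135), and Cyp4a10 fell (-4.00 ± 0.77, adjusted p = 0.014). The Cyp4a10 call was lost without WT replicates 1 (0.0595) or 3 (0.0634) or C/EBPα knockout replicate 1 (0.0619).

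Rises were rarer in this class. Serpina6, which encodes corticosteroid-binding globulin, had 3 regions of both factors within 5 kb, 1 of them over its start at chr12:104894967-104896056. Its RNA was at 54960, 32605 and 21688 in C/EBPα knockout, 4231 and 7276 in HNF4α knockout and 173, 166 and 412 in WT livers. It rose in both (7.21 ± 0.47, adjusted p = 2.48e-05, and 4.60 ± 0.52, adjusted p = 0.000739). Cym, the milk-clotting protease chymosin, was at 2033, 965 and 317 in C/EBPα knockout, 6 and 12 in HNF4α knockout and 8, 26 and 24 in WT, and rose in C/EBPα knockout (5.55 ± 0.71, adjusted p = 0.00127). Cyp2c55 was at 110, 95 and 68, at 0 and 2, and at 1, 0 and 3 in the same order of groups (5.50 ± 0.84 in C/EBPα knockout, adjusted p = 0.00358). It reached the level needed for testing only through the C/EBPα knockout livers, so this adjusted p is no support for the rise. The log2 value depends on the 1 added to each value. In HNF4α knockout, Tnfrsf9, a receptor of lymphocytes, was at 146 and 89 against 4, 0 and 12 in WT (adjusted p = 0.0422), and Atp6v0e2, a proton pump subunit, at 463 and 224 against 40, 45 and 7 (adjusted p = 0.0269). Both calls were lost without HNF4α knockout replicate 1 (0.396 and 0.323) and without 3 other libraries each, which were WT replicate 1 and HNF4α knockout replicate 2 for both, WT replicate 2 for Tnfrsf9 and WT replicate 3 for Atp6v0e2.

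**Figure D5:**
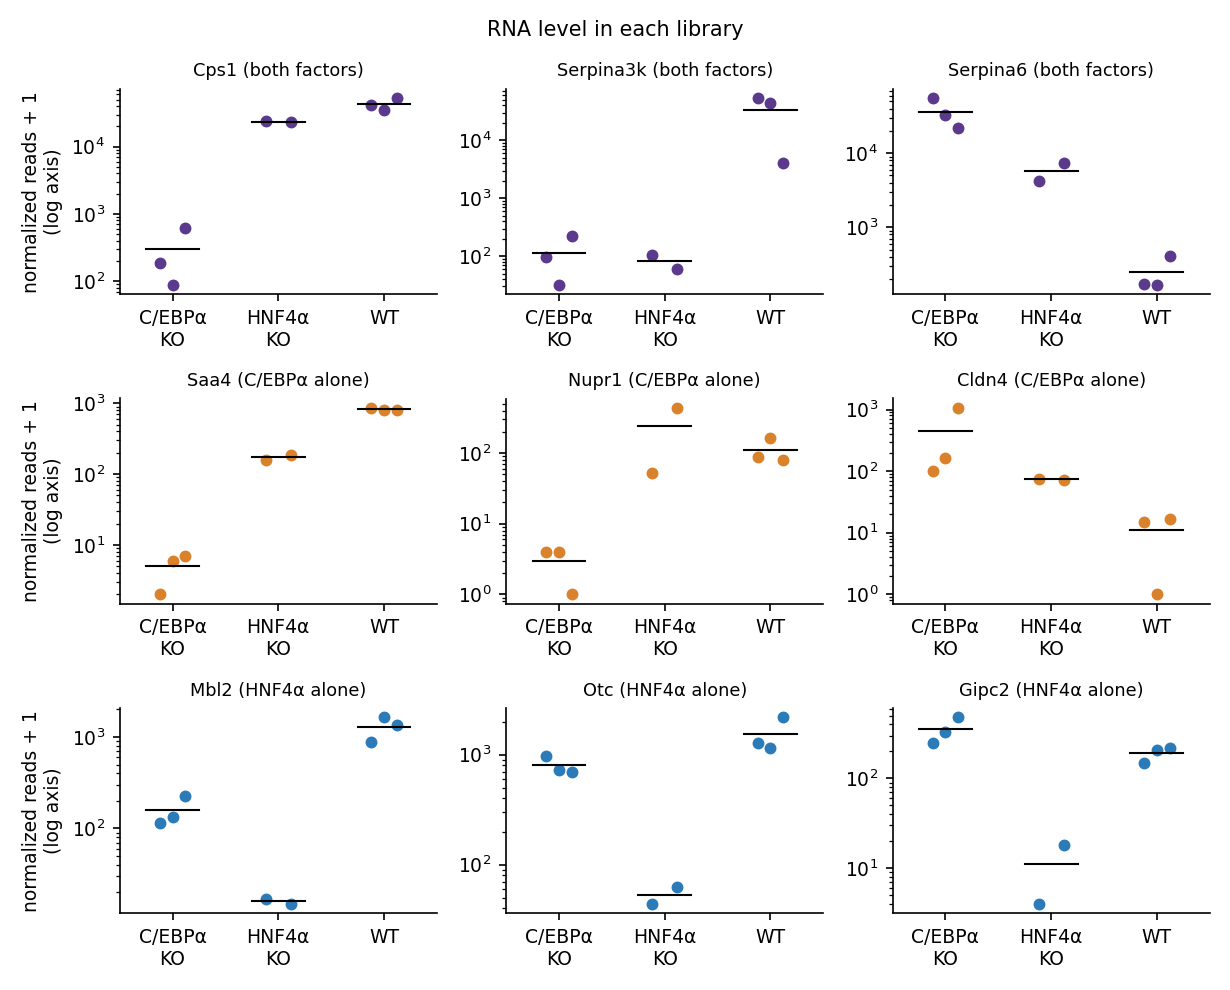
Normalized reads plus 1, on a log axis, of 9 named genes in each C/EBPα knockout, HNF4α knockout and WT liver; lines are group means. The upper row shows genes with both factors, the middle row with C/EBPα alone and the lower row with HNF4α alone.

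Baat, which conjugates bile acids, differed the other way from Cps1 though both factors were bound at its start. It was at 502, 501 and 1778 in C/EBPα knockout, 10 and 8 in HNF4α knockout and 1010, 581 and 894 in WT livers. Its log2 difference from WT was -0.08 ± 0.50 (adjusted p = 0.972) in C/EBPα knockout and -6.34 ± 0.56 (adjusted p = 0.00026) in HNF4α knockout, and 6.27 ± 0.56 (adjusted p = 0.000761) between the knockouts. Slc10a1, the main bile acid uptake carrier, was at 48, 44 and 48 in C/EBPα knockout, 673 and 323 in HNF4α knockout and 4981, 5286 and 7541 in WT, and fell in both (-6.94 ± 0.35 and -3.64 ± 0.39). Hpd, of tyrosine breakdown, was at 23, 30 and 18, at 1014 and 716, and at 3879, 5179 and 3219 in the same order. It fell in both (-7.38 ± 0.34 and -2.23 ± 0.38), the second call being lost without HNF4α knockout replicates 1 (0.0518) or 2 (0.0767), and was lower in C/EBPα knockout than in HNF4α knockout (-5.14 ± 0.38, adjusted p = 0.000598). The differences between the knockouts in Cps1, Baat, Slc10a1 and Hpd passed in every fit that left out 1 knockout library.

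By function, with the class of both factors holding most members, 18 of 30 genes of the urea cycle and amino acid catabolism fell and 1 rose in C/EBPα knockout, and 15 fell in HNF4α knockout (median log2 differences -2.10 and -1.91). Of 20 bile acid genes 14 and 14 fell (-3.42 and -3.13), and of 29 tested P450 and xenobiotic genes 19 and 21 (-2.96 and -3.16). Of 20 glucose and glycogen genes 15 and 8 fell (-2.35 and -1.67), and of 23 coagulation genes 12 and 9 (-2.34 and -1.49). Of all genes tested, 2.86% and 3.17% were lower, and the medians were 0.03 and 0.02. Examples with both factors bound at the start were the clotting factor F9 (-6.50 ± 0.52 and -5.44 ± 0.58), the histidine-rich glycoprotein Hrg (-5.67 ± 0.40 and -4.11 ± 0.44) and Fbp1 of gluconeogenesis (-3.51 ± 0.53 and -3.22 ± 0.60). The Fbp1 call in HNF4α knockout was lost without WT replicate 1 (0.053) or HNF4α knockout replicates 1 (0.0725) or 2 (0.0871).

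The other lists varied in the share that fell, beside 2.86% of all genes in C/EBPα knockout and 3.17% in HNF4α knockout. In C/EBPα and HNF4α knockout 7 and 12 of 19 complement genes fell, 3 and 9 of 19 tested fatty acid oxidation genes, 9 and 3 of 13 tested acute phase genes, 7 and 3 of 20 apolipoprotein and lipoprotein genes, and 4 and 0 of 16 plasma carriers, with 1 carrier higher in each knockout. Of 19 cholesterol synthesis genes 1 and 2 fell, with medians of 0.22 and -0.74. None of 24 ribosomal protein genes was called in either. Of 21 cell cycle genes Ccnd1, Plk1 and Ccne1 rose in C/EBPα knockout, where 0.883% of all genes did. Ccnd1, which encodes cyclin D1 (1.86 ± 0.32, adjusted p = 0.00785), kept its call without any 1 library. The call of the mitotic kinase Plk1 (1.17 ± 0.28, adjusted p = 0.046) was lost in all 6 such fits (0.0703 to 0.187), and that of Ccne1, which encodes cyclin E1 (1.16 ± 0.28, adjusted p = 0.0472), in 5 of 6 (0.106 to 0.155). Apob, the structural protein of secreted lipoproteins, was at 28066, 7325 and 13792 in C/EBPα knockout, 1347 and 1768 in HNF4α knockout and 47448, 22214 and 105213 in WT, and fell in HNF4α knockout (-4.96 ± 0.70, adjusted p = 0.00242).

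Lipc, with no region within 5 kb, changed too. It was at 770, 551 and 1570 in C/EBPα knockout, 213 and 196 in HNF4α knockout and 3400, 3029 and 3300 in WT livers, and fell in HNF4α knockout (-3.98 ± 0.42, adjusted p = 0.00061). It also fell in C/EBPα knockout (-1.89 ± 0.38, adjusted p = 0.0175), a call lost in 4 of 6 fits without 1 library (0.0579 to 0.0956), those without C/EBPα knockout replicate 1 or any WT replicate.

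Among genes with C/EBPα alone, those with the largest falls in C/EBPα knockout were Saa4, Serpina4-ps1, 3930402G23Rik, Acsm3, Miox and Nupr1. Saa4, whose promoter held 2 C/EBP matches, had a C/EBPα region at chr7:53987726-53988376. Its RNA was at 1, 5 and 6 in C/EBPα knockout, 155 and 186 in HNF4α knockout and 862, 803 and 798 in WT livers, with no overlap between the 3 groups. It fell in C/EBPα knockout (-7.55 ± 0.53, adjusted p = 2.75e-05) and was lower there than in HNF4α knockout (-5.29 ± 0.59, adjusted p = 0.00176). In HNF4α knockout against WT it did not pass (-2.27 ± 0.59, adjusted p = 0.0546). An HNF4α peak of 730 bp was called at this region in 1 of the HNF4α lists.

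Miox, an enzyme of inositol breakdown, was listed at 0 in all C/EBPα knockout livers, at 7 and 18 in HNF4α knockout and at 76, 107 and 39 in WT (-6.11 ± 0.76 in C/EBPα knockout, a value that depends on the added 1, adjusted p = 0.00101). Nupr1, a stress-induced chromatin protein, was at 3, 3 and 0 in C/EBPα knockout, 52 and 436 in HNF4α knockout and 87, 161 and 80 in WT. It fell in C/EBPα knockout (-5.38 ± 0.86, adjusted p = 0.00458), and the HNF4α knockout livers lay on either side of WT. No HNF4α peak was called at the regions of Miox, Nupr1 or Acsm3 in either list.

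Acsm3 was at 25, 21 and 3 in C/EBPα knockout, 93 and 84 in HNF4α knockout and 1245, 1158 and 1024 in WT (-6.43 ± 0.64 in C/EBPα knockout, adjusted p = 0.000203). It fell in HNF4α knockout too (-3.67 ± 0.71, adjusted p = 0.0134), a call lost without WT replicate 1 (0.0665) or HNF4α knockout replicates 1 (0.112) or 2 (0.0768). Serpina4-ps1 fell in both knockouts (-7.16 ± 0.89 and -6.61 ± 1.00, adjusted p = 0.00101 and 0.00354), and kept both calls without any 1 library. 3930402G23Rik fell in C/EBPα knockout (-6.65 ± 0.99) and did not pass in HNF4α knockout (-1.92 ± 1.11, adjusted p = 0.35). Serpina4-ps1 and 3930402G23Rik each had an HNF4α peak in 1 list. The largest rises in this class were in Cldn4, Sult1c2 and Slc22a8. Cldn4, a claudin of tight junctions, was at 100, 160 and 1064 in C/EBPα knockout against 14, 0 and 16 in WT (5.35 ± 1.11, adjusted p = 0.0213), and did not pass without C/EBPα knockout replicate 3 (0.0579). The sulfotransferase Sult1c2 was at 54, 70 and 24 against 0, 0 and 3, and did not pass without C/EBPα knockout replicates 1 (0.0603) or 2 (0.0601). Slc22a8, an organic anion carrier, was at 127, 87 and 52 against 3, 2 and 4 (4.43 ± 0.69, adjusted p = 0.00386).

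Listed plasma protein and acute phase genes with C/EBPα alone included Serpina7 and Hamp. Serpina7, which encodes thyroxine-binding globulin, was at 42, 22 and 130 in C/EBPα knockout, 2761 and 4316 in HNF4α knockout and 563, 557 and 898 in WT livers. It fell in C/EBPα knockout (-3.70 ± 0.56, adjusted p = 0.00319), was higher in both HNF4α knockout livers without passing (2.40 ± 0.62, adjusted p = 0.0534) and differed between the knockouts (-6.09 ± 0.62, adjusted p = 0.00108). Hamp, which encodes hepcidin, was at 5, 8 and 45 in C/EBPα knockout, 1924 and 2780 in HNF4α knockout and 8, 72 and 46 in WT. It rose in HNF4α knockout (6.20 ± 0.99, adjusted p = 0.00454). Both differences between the knockouts passed in every fit that left out 1 knockout library.

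Among genes with HNF4α alone, those with the largest falls in HNF4α knockout were Mbl2, Wdr52, Apol7a, Otc, Nr1i3 and Gipc2. Mbl2 had an HNF4α region over its start, chr19:30306884-30307837, with no C/EBPα peak in either list. It was at 113, 132 and 225 in C/EBPα knockout, 16 and 14 in HNF4α knockout and 878, 1640 and 1362 in WT livers, and the 3 groups did not overlap. It fell in both knockouts (-3.05 ± 0.41, adjusted p = 0.00149, and -6.29 ± 0.45, adjusted p = 0.000171), and further in HNF4α knockout by the difference between the knockouts (3.24 ± 0.45, adjusted p = 0.00375).

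Otc, with its HNF4α region at chrX:9828873-9829915, was at 979, 722 and 692 in C/EBPα knockout, 43 and 62 in HNF4α knockout and 1280, 1156 and 2185 in WT livers. It fell in HNF4α knockout (-4.81 ± 0.39, adjusted p = 0.000171) and did not pass in C/EBPα knockout (-0.91 ± 0.35, adjusted p = 0.241), with a difference of 3.91 ± 0.39 between the knockouts (adjusted p = 0.000997). A C/EBPα peak of 491 bp was called there in 1 list. Cps1, the enzyme before Otc in the cycle, had both factors and the opposite pattern of calls.

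Gipc2, a PDZ domain adaptor, was at 248, 332 and 479 in C/EBPα knockout, 3 and 17 in HNF4α knockout and 146, 206 and 218 in WT livers, so that all C/EBPα knockout livers were above all WT livers without passing (0.86 ± 0.56, adjusted p = 0.572). It fell in HNF4α knockout (-4.47 ± 0.63, adjusted p = 0.0023). Apol7a was at 243, 148 and 568, at 13 and 15, and at 1118, 639 and 1298 in the same order (-6.03 ± 0.56 in HNF4α knockout, adjusted p = 0.000336). Wdr52 was at 91, 35 and 82, at 0 and 2, and at 102, 78 and 183 (-6.05 ± 0.74, adjusted p = 0.00103). Mbl2, Otc, Gipc2 and Apol7a were higher in C/EBPα knockout than in HNF4α knockout with each knockout library left out in turn.

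Nr1i3, the nuclear receptor CAR of drug metabolism, was at 27, 8 and 146 in C/EBPα knockout, 27 and 26 in HNF4α knockout and 659, 530 and 1129 in WT livers. It fell in both (-4.46 ± 0.82, adjusted p = 0.0107, and -4.74 ± 0.92, adjusted p = 0.0134). These calls were lost without WT replicates 1 or 3 (adjusted p up to 0.0562) and, in HNF4α knockout, also without knockout replicates 1 (0.112) or 2 (0.0706). Scd1, the desaturase of fatty acid synthesis, was at 652, 509 and 637, at 1142 and 1220, and at 2762, 1731 and 7474 in the same order, and fell in C/EBPα knockout (-2.47 ± 0.46, adjusted p = 0.0125), although its region was of HNF4α alone. Bdh1, of ketone body metabolism, was at 5194, 2467 and 5732, at 614 and 769, and at 6062, 6183 and 4772, and fell in HNF4α knockout (-3.03 ± 0.42, adjusted p = 0.002). Regions near Nr1i3, Scd1 and Bdh1 held a C/EBPα peak in 1 list.

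The largest rises with HNF4α alone were modest in level. Nptx1, a neuronal pentraxin, was at 31 and 31 in HNF4α knockout against 0, 0 and 1 in WT livers (adjusted p = 0.0237), and did not pass without WT replicate 1 (0.0862). It reached the level needed for testing only through these knockout livers, and was not tested without either of them. Its adjusted p is therefore no support for the rise. Asb16 was at 355 and 124 against 42, 22 and 25 (2.84 ± 0.65, adjusted p = 0.0317), and did not pass without HNF4α knockout replicate 1 (0.445), where muscle markers were high, or without WT replicates 1, 2 or 3 (0.0665 to 0.0882). Cd276, an immune checkpoint protein, was at 269, 266 and 329 in C/EBPα knockout, 491 and 334 in HNF4α knockout and 84, 61 and 55 in WT. It rose in both (2.11 ± 0.36 and 2.61 ± 0.41, adjusted p = 0.00728 and 0.00415), the second of which did not pass without HNF4α knockout replicate 1 (0.0895).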

How the data were processed

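Livers were profiled by ChIP-seq and RNA sequencing. The authors deposited peak lists with start and end positions, on build mm9, and MACS 1.4 is named in the submitters' processing notes, which also list BWA, bedtools, TopHat2, Cufflinks and DESeq without roles. The score column of the deposited lists is 0 throughout, so no peak height was used; whether lists were called per sample is not given in the sources used here, but each replicate has its own. The RNA values deposited by the authors are treated as a score, since the deposited table is named as DESeq-normalized reads and holds whole numbers. Raw depth is therefore unknown, and a test for counts that had been planned was replaced by limma 3.58.1 (R 4.3.3). Genes reaching 10 in 2 or more libraries were tested as log2(value + 1), with all 8 libraries in 1 fit, 3 contrasts, 2-sided tests and Benjamini-Hochberg adjustment over 17771 genes; a call is an adjusted p under 0.05. A log2 change is on this scale and understates the change of low genes. In simulated data 35.5% of 4-fold and 83.5% of 8-fold changes were recovered for C/EBPα knockout against WT, and 31.5% and 81% for HNF4α knockout against WT.

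Regions were intersected with code in Python 3.11.15, by overlaps of at least 1 bp, and the TSS was read from the 37583 genes of the authors' table. Promoters were matched by symbol to RefSeq. For each class the 6 largest falls and 3 largest rises in the knockout of a bound factor were named, with up to 4 called members of each list and those with no region. Members, lists and rules were chosen with earlier results of these data known. Nothing says that the RNA libraries came from separate litters, so p-values measure the spread between these livers. RNA polymerase II and input samples were not used here. Some genes that this rule named are not reported here.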

Additional observations from a re-analysis of the deposited data

How the results depend on the processing

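With a peak of either replicate enough, 20852 regions and 6809 genes had both factors, and with 1 kb in place of 5 kb 2593 genes had; overlap of 50% of the shorter region, middle windows and single lists left each class count within 1.5 times. HNF4α-alone genes lower in HNF4α knockout were 88 at 1 kb and 33 at 10 kb. Library totals gave 213 genes with both factors and 26 with C/EBPα alone lower in C/EBPα knockout, and 21.1% in place of 53.6% of calls between the knockouts were lower. Without a filter on low values 403 genes differed between the knockouts. With only the groups compared in the fit, 1475 were called in HNF4α knockout, 343 between the knockouts, and 80 with HNF4α alone were lower in HNF4α knockout. Same-numbered libraries did not deviate together (correlations of -0.231 to 0.190); with the replicate number as a block 486 genes were called in HNF4α knockout (231 lower with both factors) and 288 between the knockouts. Leaving out 1 library gave 311 to 804 calls in C/EBPα knockout (main value 666), 238 to 643 in HNF4α knockout (836) and 88 to 855 between the knockouts (619). Lower calls were then 171 to 425 (both factors) and 25 to 68 (C/EBPα alone) in C/EBPα knockout, and 146 to 295 (both factors) and 20 to 49 (HNF4α alone) in HNF4α knockout. The lowest counts came without WT replicate 1 in C/EBPα knockout and without HNF4α knockout replicate 1 in the others. WT replicates 2 and 3, C/EBPα knockout replicates 1 and 2 and HNF4α knockout replicate 2 also moved counts by over 1.5 times. Of 172 calls of named genes, 87 passed in each fit without 1 library that tested the gene, and none changed direction in any setting. The 87 include the calls of the muscle marker Pvalb in HNF4α knockout and between the knockouts. Pvalb was tested in only 3 such fits for each, and not without HNF4α knockout replicates 1 or 2. The cause of the moves in these counts was not tested. Ranking peaks by score was not run, since the scores are 0. Of 12 motif shares, with the TSS within 1 kb of a region or with all genes in place of protein-coding ones (chosen after seeing the data), 1 moved beyond its 95% Wilson interval. The shares of P14 regions with a peak at other stages were also taken in windows of 100 bp on either side of the region middle. Of these, 57 moved beyond their 95% Wilson interval and 3 did not.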
